A study of Mus musculus with 6 samples.

Results

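The genes described here are 33 genes of glycolysis and of the transcriptional response to low oxygen, given by symbol. They were grouped by known function, not by measured values, but the set was chosen with earlier results of these data known. All 33 were found among the 21442 genes of an Affymetrix gene array, on which 492 probe sets report them. RNA came from cultured NK cells of the mouse spleen, 3 samples of the Ly49C/I+ subset and 3 of the Ly49G2+ subset. Ly49C/I and Ly49G2 are inhibitory receptors for MHC class I that mouse NK cells carry in varying combinations. All 6 samples came from C57BL/6 mice, as the protocol puts it; the strain field reads C57BL/5. Spleen cells were depleted of T cells with anti-Thy1.2 and rabbit complement, grown for 7 days with 1000 IU of IL-2, and sorted from the CD3-CD122+ gate as Ly49G2-Ly49C/I+ or as Ly49G2+Ly49C/I- cells. No group was left uncultured or without IL-2, so every value is that of an IL-2-grown cell. The labels give no age, sex or pooling of mice, and do not say whether samples of a group came from separate mice or cultures, so p-values reflect only how these samples vary, a variation that may be technical. For Ly49G2+ replicate 1 the source field disagrees with the title and description by naming Ly49C/I+, and the title was followed.

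HIF-1α, the product of Hif1a, is hydroxylated by the EGLN prolyl hydroxylases when oxygen is present and is then degraded. When it is stable it pairs with ARNT and binds DNA at the letters ACGTG or GCGTG, and its known targets include glucose transporters, most glycolytic enzymes, lactate export, and genes of collagen modification, oxidative protein folding and mitophagy. In lymphocytes activated by cytokines such as IL-2, glucose uptake and glycolysis rise, and HIF-1α can accumulate without low oxygen.

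The arrays were alike in overall signal, with medians from 7.73 to 7.75 on the log2 scale and lower quartiles from 5.82 to 5.86. Ly49G2+ replicate 2 lay apart from its group on the second principal component (9.11, against -5.92 and -7.10 for the other Ly49G2+ arrays). Of the 10 NK markers, Ncr1 and Klrb1c among them, 0 passed the adjusted test; Itga2 and Cd244 had every Ly49C/I+ array higher, with differences of 0.17 and 0.14 on the log2 scale (limma adjusted p = 0.0786 and 0.0743). The T cell genes Cd3e, Cd3d, Cd3g and Cd8a were higher in Ly49G2+ cells (4 of 10 T cell markers). They were higher by 4.688-fold, 3.412-fold, 1.985-fold and 1.642-fold, in that order. The Cd3e difference was the largest of all genes toward Ly49G2+, though both subsets were sorted from a CD3- gate. The summed linear signal of the 10 markers ran from 9107 to 9297 in Ly49C/I+ and from 11776 to 12096 in Ly49G2+. Of the 6 T cell markers that did not pass, 3 were dim in Ly49C/I+ and Ly49G2+: Cd4 (6.25 and 6.16), Cd5 (6.44 and 6.52) and Cd8b1 (6.24 and 6.31). Cd6, also dim, had every Ly49C/I+ array higher, by 0.10 between the means. Thy1 (12.45 in Ly49C/I+ and 12.54 in Ly49G2+) and Cd28 (10.89 and 10.95) were bright in both, and Thy1 had every Ly49G2+ array higher. Cd8a, which passed, was itself dim at 6.71 and 7.43. Of 15 cell cycle genes, 14 were higher in Ly49C/I+ cells, with a summed signal of 31975 to 32842 against 24405 to 25557. Of the 21 B cell, myeloid and erythroid markers, 1 passed, Cd14 of the myeloid list, higher in Ly49G2+. The T cell and cell cycle genes move with the subset in every comparison below, and their part in those results was not tested.

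Of the 33 genes, 5 had higher signal in the Ly49G2+ subset, 0 had higher signal in the Ly49C/I+ subset, and 28 did not pass (limma, Benjamini-Hochberg adjusted p under 0.05 over all genes). Across all genes on the array, 3.72% were called higher in Ly49G2+ and 6.16% higher in Ly49C/I+. The genes that rose in Ly49G2+ were Ero1l, Hif1a, P4ha1, Bnip3 and Slc16a3. Among them, 4 belong to the hypoxia side of the set and 1 exports lactate. Of the 17 glycolytic enzymes, from hexokinase to lactate dehydrogenase, 0 passed. At the shares over all genes a list of 17 may hold few or none, so this 0 is no contrast with the hypoxia genes. By overlap, 5 of the 17 (29.4%) were higher in Ly49G2+ and 1 (5.88%) in Ly49C/I+, where all genes gave 13.5% and 14.3%. In bulk RNA, fewer cells that express a gene and less of its RNA per cell cannot be told apart. The differences were small, from 1.14-fold for Slc16a3 to 1.33-fold for Ero1l. Differences below are Ly49C/I+ minus Ly49G2+ on the log2 scale, so that a negative value means higher in Ly49G2+. They ran from -0.41 to 0.16 over the 33 genes and were below 0 for 28, with a median of -0.07 beside -0.01 for all genes. At an unadjusted p under 0.05, 8 genes were higher in Ly49G2+ and 2 in Ly49C/I+, where all genes gave 10.7% and 12.3%. P-values of the authors' deposited table, given per transcript cluster, were adjusted over clusters, and each gene took the lowest of its clusters. By these, 3 of the 33 genes were higher in Ly49G2+ and 0 in Ly49C/I+, against 1.67% and 2.75% of all genes. Bnip3 counted among the 3 through its cluster of 1 probe set, not through its cluster of 6. Over 13 alternative settings, Ero1l passed in 13, Hif1a and P4ha1 in 12 each, Bnip3 in 10 and Slc16a3 in 4.

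**Figure D1:**
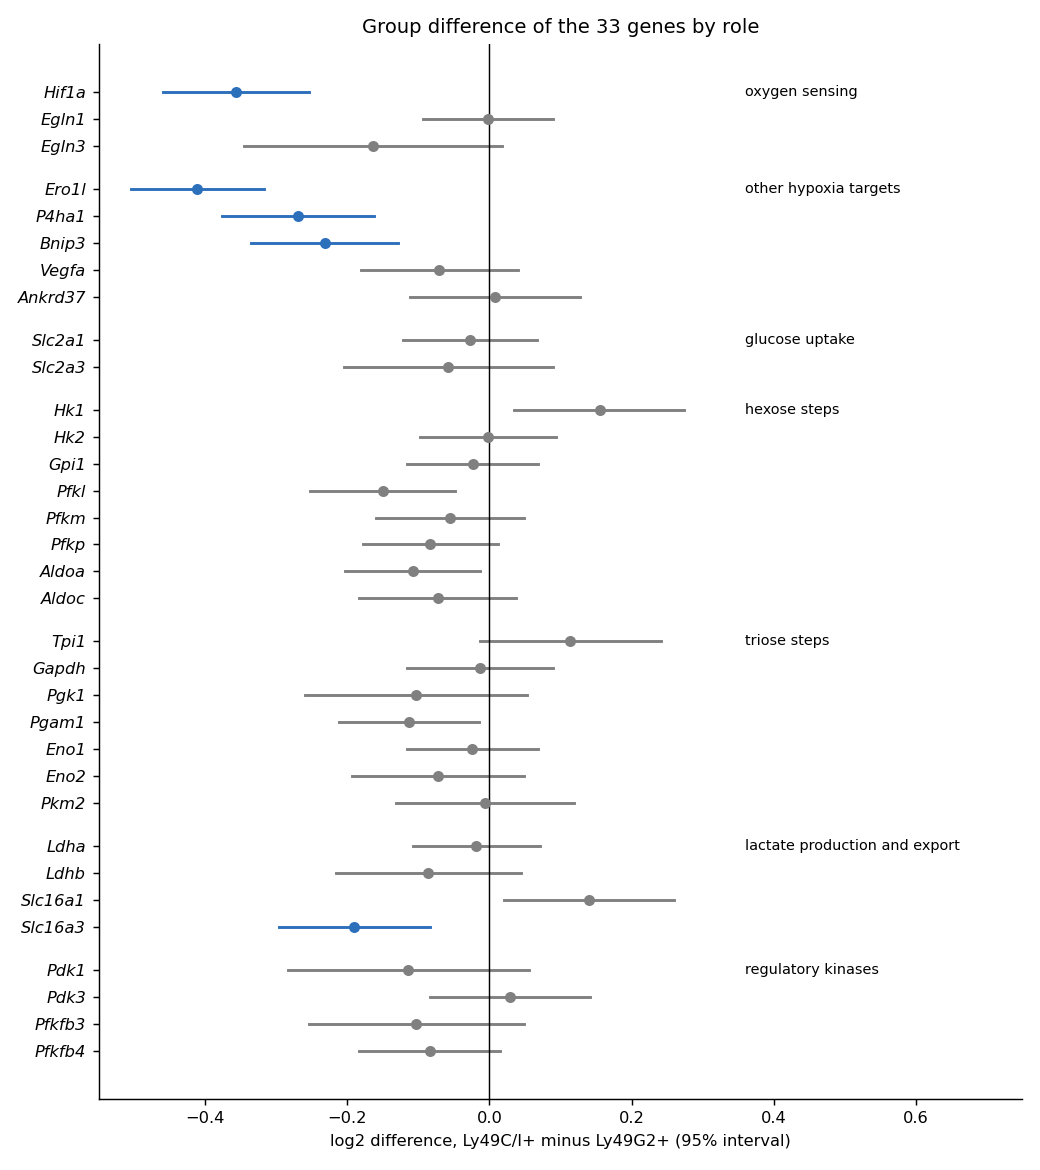
Difference of each of the 33 genes, Ly49C/I+ minus Ly49G2+ in log2 units, as points with 95% confidence intervals from limma, ordered by role. Blue marks the 5 genes that passed, all left of 0, and grey the 28 that did not; the intervals of most glycolytic enzymes include 0.

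The promoter windows of the 5 genes that passed, Hif1a and 4 genes known as targets of its product, are printed below. Other known targets in the set did not pass, such as Slc2a1, Ldha, Vegfa and Pdk1. Whether HIF-1α acts on any of these genes here was not tested. The windows run from 250 bases before to 50 bases after the RefSeq start of each gene in build GRCm38.p6, 5′ to 3′ on the gene's strand. Capitals mark ACGTG and GCGTG on either strand, which read CACGT and CACGC where the match is on the opposite one, and CACGTG is 1 run that holds ACGTG on both strands.
Hif1a, chr12:73907617-73907916, + strand: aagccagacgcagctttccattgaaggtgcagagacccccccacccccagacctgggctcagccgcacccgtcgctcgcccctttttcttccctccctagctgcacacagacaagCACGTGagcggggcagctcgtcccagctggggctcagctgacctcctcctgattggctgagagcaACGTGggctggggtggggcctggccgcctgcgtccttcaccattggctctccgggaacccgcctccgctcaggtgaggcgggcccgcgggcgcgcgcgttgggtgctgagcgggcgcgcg
Ero1l (Ero1a in RefSeq), chr14:45318523-45318822, - strand: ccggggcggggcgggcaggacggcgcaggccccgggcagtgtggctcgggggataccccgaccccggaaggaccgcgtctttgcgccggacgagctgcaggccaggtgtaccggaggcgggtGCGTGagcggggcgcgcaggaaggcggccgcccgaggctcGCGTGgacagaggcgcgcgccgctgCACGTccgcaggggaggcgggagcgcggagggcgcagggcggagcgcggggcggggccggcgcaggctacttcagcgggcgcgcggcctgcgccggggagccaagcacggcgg
P4ha1, chr10:59323046-59323345, + strand: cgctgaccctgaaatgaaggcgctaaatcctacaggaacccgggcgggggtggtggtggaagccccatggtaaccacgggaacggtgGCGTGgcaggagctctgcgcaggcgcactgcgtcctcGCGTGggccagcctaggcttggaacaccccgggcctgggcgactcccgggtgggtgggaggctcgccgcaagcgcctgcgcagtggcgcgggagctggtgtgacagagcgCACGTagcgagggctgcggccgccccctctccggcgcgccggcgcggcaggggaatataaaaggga
Bnip3, chr7:138909457-138909756, - strand: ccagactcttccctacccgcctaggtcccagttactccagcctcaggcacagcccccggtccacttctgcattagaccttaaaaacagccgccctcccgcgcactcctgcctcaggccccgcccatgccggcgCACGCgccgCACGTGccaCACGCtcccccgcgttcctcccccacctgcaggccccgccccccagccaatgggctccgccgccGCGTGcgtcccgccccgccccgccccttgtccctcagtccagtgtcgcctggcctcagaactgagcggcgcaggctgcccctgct
Slc16a3, chr11:120948817-120949116, + strand: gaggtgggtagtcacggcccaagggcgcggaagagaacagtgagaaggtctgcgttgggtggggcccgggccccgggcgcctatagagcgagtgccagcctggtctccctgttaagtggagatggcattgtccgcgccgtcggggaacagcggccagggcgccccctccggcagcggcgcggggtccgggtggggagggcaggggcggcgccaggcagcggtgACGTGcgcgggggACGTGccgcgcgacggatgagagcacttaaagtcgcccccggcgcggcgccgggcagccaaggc

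All 5 windows hold at least 1 of the motifs, at distances of 14 to 163 bases before the start site. Bnip3 has 5 matches, Hif1a, Ero1l and P4ha1 3 each, and Slc16a3 2. The letters are frequent: 43.8% of the 32851 mouse windows of this length hold at least 1 match. Counted by gene, 54.8% of the 15938 genes tested here that have a window hold a match in any of their windows. Among the set, 32 genes have a window and 29 of them (90.6%) hold a match. Of the 27 genes with a window that did not pass, 24 hold a match (88.9%), beside 5 of 5 that passed. Gpi1, Tpi1 and Eno2 have no match in this window, and Slc2a3 has no window here. A match is a run of letters and not a measured site.

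Oxygen sensing was represented by Hif1a and the hydroxylases Egln1 and Egln3, whose products mark HIF-1α for degradation. Hif1a signal was 10.85, 10.81 and 10.89 in Ly49C/I+ replicates 1 to 3 and 11.24, 11.16 and 11.21 in Ly49G2+ replicates 1 to 3. Every Ly49G2+ array was above every Ly49C/I+ array. The means were 10.85 ± 0.043 and 11.21 ± 0.041 (SD, n = 3 each), a difference of -0.36 ± 0.046 (SE, 95% interval -0.46 to -0.25), or 1.28-fold (limma adjusted p = 0.00107). All 18 Hif1a probe sets were lower in Ly49C/I+, in 12 without overlap, and the last 2 in the order of their IDs differed most, by -1.14 and -1.02. Without those 2 the other 16 averaged -0.27. When the median of the probe sets was taken in place of the mean, the adjusted p of Hif1a was 0.0604. Egln1 was 9.49 in both subsets (difference -0.002, interval -0.09 to 0.09). Egln3, dim at 6.52 and 6.69, differed by -0.16 with 1 low array, Ly49C/I+ replicate 3 at 6.32, and did not pass (adjusted p = 0.266).

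**Figure D2:**
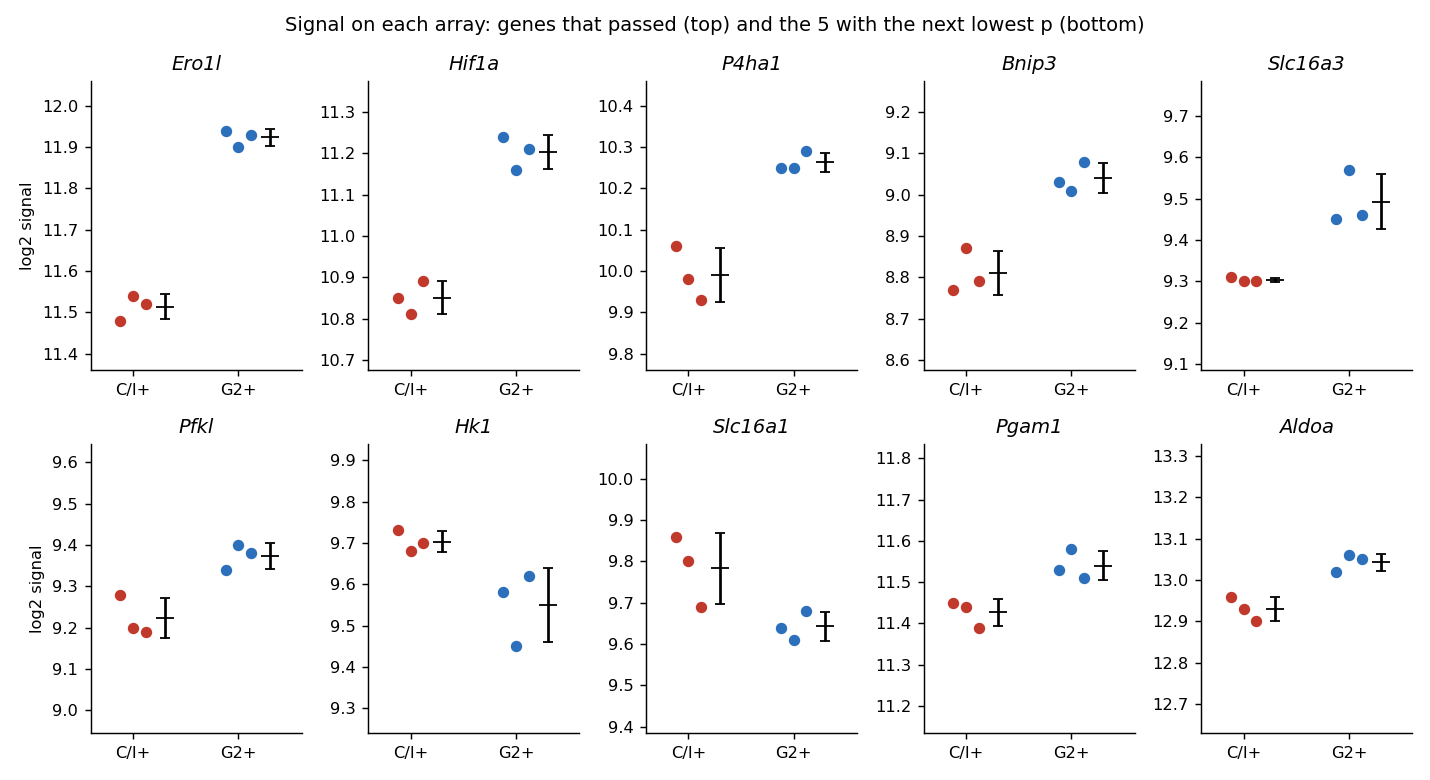
Log2 signal on each of the 6 arrays (points, red for Ly49C/I+ and blue for Ly49G2+, replicates 1 to 3 from left to right) with the mean and SD of each group beside them, for the 5 genes that passed (top row) and the 5 with the next lowest p (bottom row); panels start at different levels. In the top row every Ly49G2+ array lies above every Ly49C/I+ array.

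The other hypoxia targets held the largest difference of the set, that of Ero1l, the oxidase of the endoplasmic reticulum that re-oxidises protein disulfide isomerase during disulfide bond formation. Ero1l was 11.48, 11.54 and 11.52 in Ly49C/I+ and 11.94, 11.90 and 11.93 in Ly49G2+, with a gap between the groups many times the spread within either. The means were 11.51 ± 0.028 and 11.92 ± 0.017 (SD, n = 3), a difference of -0.41 ± 0.042 (interval -0.51 to -0.32), 1.33-fold (limma adjusted p = 0.000338). All 17 of its probe sets were lower in Ly49C/I+, by -0.72 to -0.13, and 15 did not overlap. In the authors' deposited table its ratio of Ly49C/I+ over Ly49G2+ is 0.777.

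P4ha1, the catalytic subunit of collagen prolyl 4-hydroxylase, was 10.06, 9.98 and 9.93 in Ly49C/I+ and 10.25, 10.25 and 10.29 in Ly49G2+. The subsets did not overlap, and the means of 9.99 ± 0.066 and 10.26 ± 0.026 (SD, n = 3) differed by -0.27 ± 0.048 (limma adjusted p = 0.00623; 1.21-fold). Of its 17 probe sets, 16 were lower in Ly49C/I+ and 9 did not overlap in that direction. With the authors' deposited p-values its adjusted p was 0.15.

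Bnip3 encodes a mitochondrial receptor for mitophagy. It was 8.77, 8.87 and 8.79 in Ly49C/I+ and 9.03, 9.01 and 9.08 in Ly49G2+, and the groups did not overlap. The difference was -0.23 ± 0.046 (limma adjusted p = 0.011; 1.17-fold). The array reports Bnip3 from 2 transcript clusters that differ in size, -0.34 for 1 cluster of a single probe set and -0.12 for the cluster of 6. Of its 7 probe sets, 4 were lower in Ly49C/I+, all without overlap, and the other 3 lay above 0, by up to 0.23. With the larger cluster alone, a choice made after seeing the data, the adjusted p was 0.175, and without Ly49C/I+ replicate 3 it was 0.0516. The remaining targets did not pass: Vegfa, the angiogenic growth factor, differed by -0.07 (interval -0.18 to 0.04), and Ankrd37, an ankyrin repeat gene, by 0.01 (interval -0.11 to 0.13).

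Whether a gene's probe sets moved together is drawn for 6 genes in the plot of probe sets. Over the set, 93 of 492 probe sets (18.9%) had every Ly49G2+ array above every Ly49C/I+ array, beside 8.7% of the 227645 probe sets of all named genes. The reverse held for 24 (4.88%), beside 9.9%. Probe sets of a gene share its transcripts, and 79 of the 492 belong to Gapdh, some with the same values on every array. These shares therefore describe the set and carry no test.

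**Figure D3:**
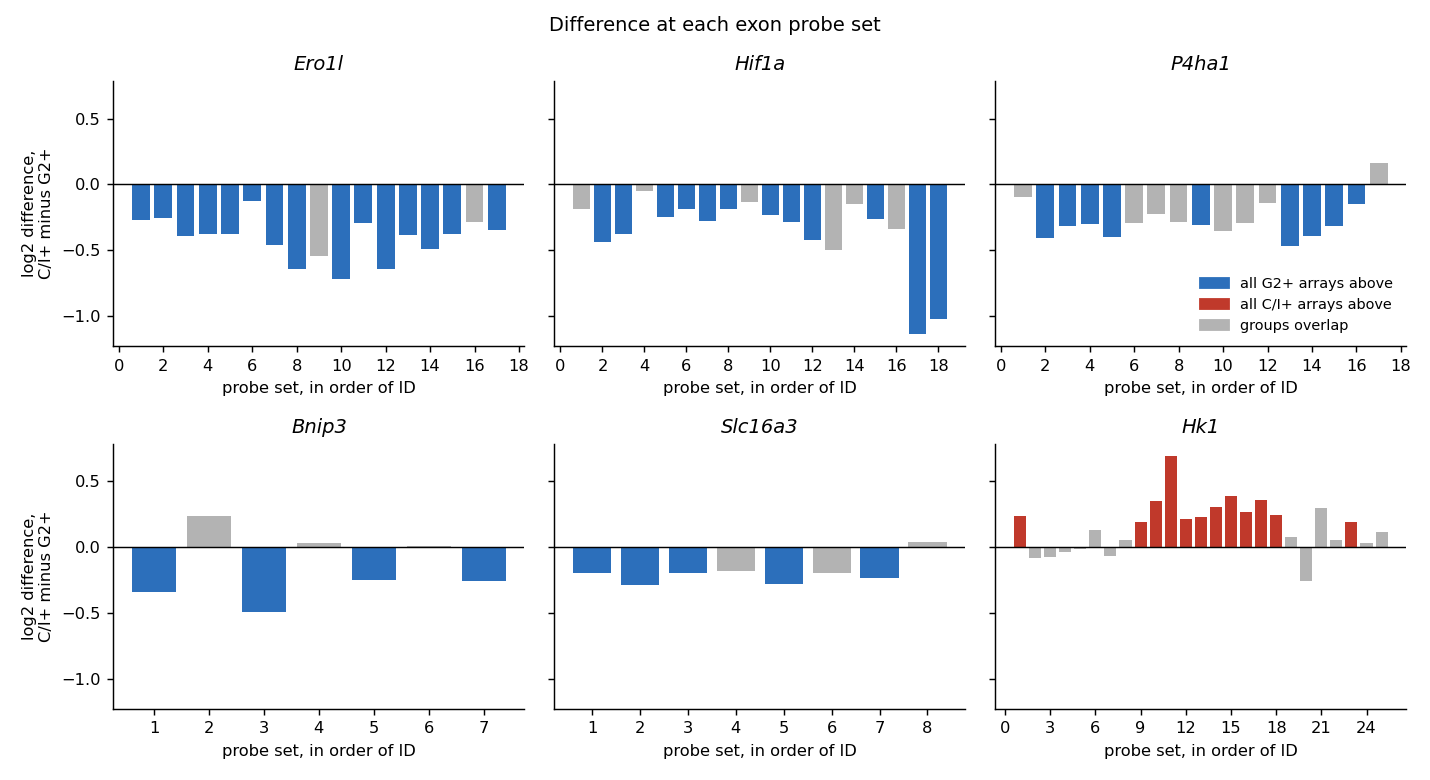
Difference at each exon-level probe set, Ly49C/I+ minus Ly49G2+ in log2 units, as bars in the order of probe set ID for the 5 genes that passed and Hk1. Blue bars have every Ly49G2+ array above every Ly49C/I+ array, red bars the reverse, and grey bars overlap: Ero1l is below 0 at all 17, Hif1a drops at its last 2, and Hk1 has 12 red bars.

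Glucose uptake was represented by Slc2a1 and Slc2a3, the transporters GLUT1 and GLUT3, and neither passed. Slc2a1 differed by -0.03, with an interval of -0.12 to 0.07. Slc2a3 differed by -0.06 (interval -0.21 to 0.09). Of its 13 probe sets 12 were lower in Ly49C/I+, and the dim seventh was 1.23 higher there. The mean of the other 12 was -0.17. Those 12 include the last probe set, at -0.73, where Ly49C/I+ replicate 2 was low (8.72, beside 10.48 and 10.10). The median of all 13 was -0.107.

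In the hexose steps, from hexokinase to aldolase, 0 of 8 genes passed. Pfkl, the liver type of phosphofructokinase, came nearest in the direction of Ly49G2+. It was 9.28, 9.20 and 9.19 in Ly49C/I+ and 9.34, 9.40 and 9.38 in Ly49G2+, without overlap, and differed by -0.15 ± 0.046 (limma adjusted p = 0.0723). The platelet type Pfkp also did not overlap (-0.08, adjusted p = 0.289), and the muscle type Pfkm differed by -0.06 with overlap. Aldoa, the aldolase of most tissues, was 12.96, 12.93 and 12.90 against 13.02, 13.06 and 13.05, a difference of -0.11 that did not pass (adjusted p = 0.156). Aldoc differed by -0.07, and Gpi1, the isomerase between the 2 phosphorylated hexoses, by -0.02.

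The hexokinases phosphorylate glucose to hold it in the cell, and Hk1 had the opposite direction to most of the set. Hk1 was 9.73, 9.68 and 9.70 in Ly49C/I+ and 9.58, 9.45 and 9.62 in Ly49G2+, with every Ly49C/I+ array higher. The difference of 0.16 ± 0.053 did not pass (limma adjusted p = 0.109). Of its 25 probe sets, 12 had every Ly49C/I+ array above every Ly49G2+ array. Hk2, the inducible hexokinase, was 9.69 and 9.70, with an interval of -0.10 to 0.09 on the difference.

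The triose steps, from triose phosphate isomerase to pyruvate kinase, gave 0 of 7. Pgam1, the phosphoglycerate mutase, was 11.45, 11.44 and 11.39 in Ly49C/I+ and 11.53, 11.58 and 11.51 in Ly49G2+, without overlap and with a difference of -0.11 ± 0.044 (limma adjusted p = 0.154). Gapdh differed by -0.01 (interval -0.12 to 0.09) and Pkm2, pyruvate kinase, by -0.01 (interval -0.13 to 0.12). Tpi1 differed by 0.11 and Pgk1 by -0.10, both with overlap. Eno1 differed by -0.02, and Eno2, the neuronal enolase, was near the lower quartile of signal at 6.08 and 6.15. Gapdh was averaged over 38 transcript clusters and Pgk1, Pgam1 and Eno1 over 3 each, so near-identical copies may share their signal. For Gapdh, Pgk1 and Pgam1, some probe sets of different clusters had the same values on all 6 arrays, and such repeats enter the average. Over the 17 glycolytic enzymes counted above, the differences had a median of -0.06 and 15 were below 0.

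Lactate is made by lactate dehydrogenase and leaves through monocarboxylate transporters. Slc16a3, the exporter MCT4, was 9.31, 9.30 and 9.30 in Ly49C/I+ and 9.45, 9.57 and 9.46 in Ly49G2+. The Ly49C/I+ arrays were nearly equal and all below the Ly49G2+ arrays. The difference was -0.19 ± 0.047 (limma adjusted p = 0.033), and it no longer passed in 9 of 13 alternative settings, every omission of 1 array among them (adjusted p from 0.0149 to 0.133 over the 13). Of its 8 probe sets, 7 were lower in Ly49C/I+ and 5 did not overlap. Slc16a1, the transporter MCT1, was 9.86, 9.80 and 9.69 in Ly49C/I+ and 9.64, 9.61 and 9.68 in Ly49G2+. Its groups just failed to overlap in the other direction, and its difference of 0.14 ± 0.053 did not pass (adjusted p = 0.143). It rested on 1 of 6 probe sets, at 0.89, since the other 5 averaged -0.01.

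Within each array, Slc16a3 minus Slc16a1 was -0.55, -0.50 and -0.39 in Ly49C/I+ and -0.19, -0.04 and -0.22 in Ly49G2+. The 0.33 gap between the group means had an exact two-sided permutation p of 0.1, the smallest that 3 against 3 arrays allow, and it shares the Slc16a1 probe set just described. Exact tests of Ero1l, Hif1a, P4ha1, Bnip3 and Slc16a3 gave the same p of 0.1. Ldha was 12.58 ± 0.004 and 12.60 ± 0.004, without overlap, and the difference of -0.02 had an interval of -0.11 to 0.07. Ldhb was near the lower quartile of signal, at 6.01 and 6.10.

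The kinases that regulate the pathway gave 0 of 4. Pdk1, which inhibits pyruvate dehydrogenase and is a known HIF-1 target, was 8.38, 8.44 and 8.50 in Ly49C/I+ and 8.66, 8.37 and 8.64 in Ly49G2+. The low array was Ly49G2+ replicate 2, and without it Pdk1 differed by -0.21 (adjusted p = 0.0333), against -0.11 with all arrays (adjusted p = 0.419). Pdk3 differed by 0.03. Pfkfb3 and Pfkfb4, which make the phosphofructokinase activator fructose 2,6-bisphosphate, differed by -0.10 and -0.08. Over the 28 genes that did not pass, the 95% intervals reached at most -0.34 (Egln3) and 0.27 (Hk1).

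Counted by overlap alone, 11 of the 33 genes (33.3%) had every Ly49G2+ array above every Ly49C/I+ array and 2 (6.06%) the reverse, where all genes gave 13.5% and 14.3%. Besides the 5 that passed, the 11 were Pfkl, Pfkp, Aldoa, Pgam1, Ldha and Pfkfb4. The summed linear signal of the 33 genes ran from 66801 to 68233 in Ly49C/I+ and from 70379 to 71008 in Ly49G2+. This sum weighs bright genes most and includes the 5 that passed, so it does not show a shift of the whole set.

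Other genes of the same pathways were read from 3 further lists, also chosen with earlier results of these data known. Of 37 other hypoxia-response genes, 9 rose in Ly49G2+ and 2 in Ly49C/I+, and 26 did not pass, with a median difference of -0.05. All genes gave 3.72% and 6.16%, so the 2 in Ly49C/I+ lie near the share over all genes. The 9 became 5 when Ly49C/I+ replicate 2, Ly49C/I+ replicate 3 or Ly49G2+ replicate 1 was left out, and 2 with the median of probe sets. With p-values from the authors' deposited table, 1 gene passed in each direction, Ddit4 and Cited2. These counts lie near the shares over all genes, 1.67% and 2.75%. Ddit4, an inhibitor of mTORC1 also induced by stress, was 10.42, 10.39 and 10.36 in Ly49C/I+ and 10.82, 10.86 and 10.80 in Ly49G2+ (1.35-fold, limma adjusted p = 0.000305). Hmox1, the heme oxygenase, was 1.33-fold higher in Ly49G2+ (adjusted p = 0.000716) and Epas1, which encodes HIF-2α, 1.19-fold (adjusted p = 0.00441), though Epas1 was dim at 7.12, 7.09 and 7.13 against 7.39, 7.36 and 7.34. Stc2, a secreted glycoprotein, and Ndrg1, a stress-response gene, were higher by 1.23-fold and 1.19-fold. Cited2, whose product competes with HIF-1α for its coactivators p300 and CBP, went the other way: it was 11.29, 11.35 and 11.29 in Ly49C/I+ and 11.03, 10.93 and 11.01 in Ly49G2+ (1.25-fold, adjusted p = 0.00207). By overlap, 15 of the 37 (40.5%) were higher in Ly49G2+ and 6 (16.2%) in Ly49C/I+, where all genes gave 13.5% and 14.3%. Arnt, whose product pairs with HIF-1α, was among the 6, with a difference of 0.16 (limma adjusted p = 0.1). It passed, as higher in Ly49C/I+, only with trend and robust moderation. Ddit4 and Cited2 passed in all 13 alternative settings, Stc2 in 12, and Epas1, Hmox1 and Ndrg1 in 11 each. The other 5 that passed, named here so that the list is complete, did so less often: P4ha2 in 7, Narf and Wsb1 in 5 each, Egln2 in 4 and Rora in 3.

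**Figure D4:**
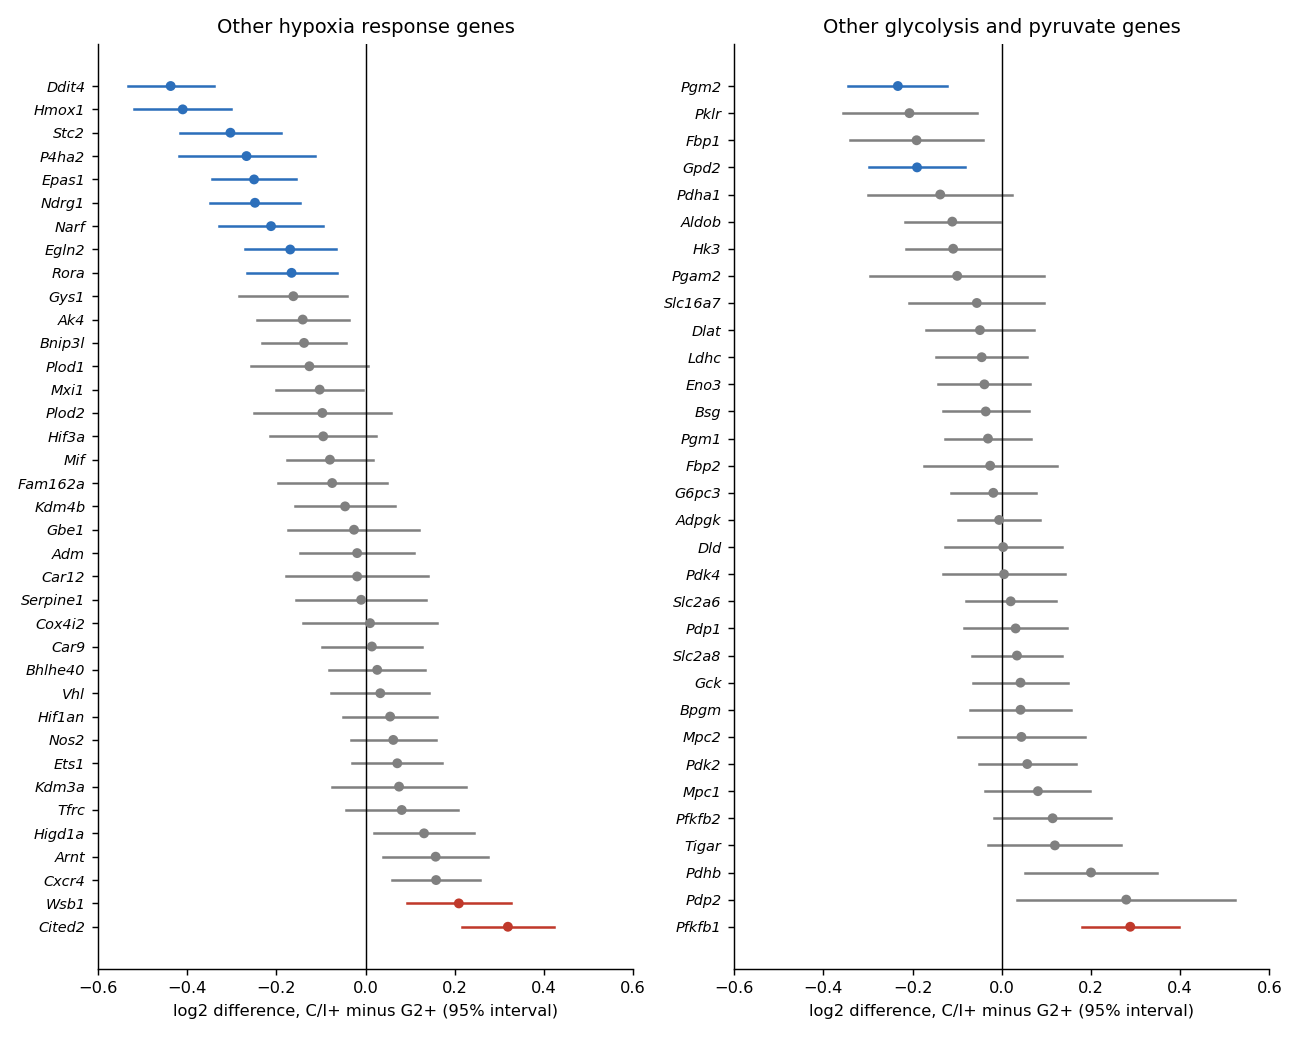
Difference of each gene of 2 further lists, 37 other hypoxia-response genes and 32 other genes of glycolysis and pyruvate use, Ly49C/I+ minus Ly49G2+ in log2 units with 95% intervals from limma. Blue marks genes that passed as higher in Ly49G2+ (9 and 2), red those higher in Ly49C/I+ (2 and 1), and grey those that did not pass.

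Of 32 further genes of glycolysis and pyruvate use, 2 rose in Ly49G2+ (Pgm2 and Gpd2), 1 rose in Ly49C/I+ (Pfkfb1) and 29 did not pass, with a median of -0.01. These counts lie near the shares over all genes, 3.72% and 6.16%. With the authors' deposited p-values they were 0 and 2, and the 2 in Ly49G2+ became 0 when Ly49C/I+ replicate 2, Ly49C/I+ replicate 3 or Ly49G2+ replicate 1 was left out. The gene that the array names Pgm2, a phosphoglucomutase that RefSeq now lists as Pgm1, was 1.18-fold higher and Gpd2, the mitochondrial glycerol phosphate dehydrogenase, 1.14-fold. Pfkfb1, a relative of Pfkfb3 and Pfkfb4 in liver, was 1.22-fold higher in Ly49C/I+ (limma adjusted p = 0.00462). Pfkfb1 passed in 12 of 13 alternative settings, Pgm2 in 8 and Gpd2 in 5. Of 8 pentose phosphate genes, Pgd alone passed: this enzyme of the oxidative branch was 11.31, 11.31 and 11.26 in Ly49C/I+ and 10.96, 10.96 and 11.02 in Ly49G2+ (1.24-fold higher in Ly49C/I+, adjusted p = 0.00172).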

How the data were processed

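The submitters' processing notes name Partek and RMA (robust multi-array averaging); their versions and a genome build are not given in the sources used here. The authors deposited log2 signal for 241576 exon-level probe sets on each array, and a table of 35556 transcript clusters. Per the file headers, the deposited table holds an ANOVA p-value and a ratio, Ly49C/I+ over Ly49G2+. Probe sets were joined to the 24692 named clusters by ID number, and averaged per cluster and then per gene. Join and deposited differences correlated at r = 0.947 across clusters, which are not independent.

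Differences were tested with limma 3.58.1 (R 4.3.3; no filter, two-sided, threshold 0.05 after Benjamini-Hochberg adjustment over all genes), and the procedure was tested on simulated data. Joins used Python 3.11.15. The set and all lists were chosen with earlier results of these data known. Values on every array are given for genes that passed, the 5 of next lowest p and both lactate transporters. In each further list up to 6 passing genes are given with fold changes, and any others that passed are only named. Pdk1 and Arnt were added after their values were seen. Promoter windows are RefSeq sequences of GRCm38.p6. Alternatives changed the moderation, normalization, probe set summary, signal filter, replicate block and arrays used, or took the authors' deposited p-values; use of the largest cluster per gene was chosen after seeing the data. The number of arrays limits the precision.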

Additional observations from a re-analysis of the deposited data

How the results depend on the processing

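Under 13 alternatives none of the passing genes of the set or of the 3 further pathway lists reversed (Slc16a1, which had not passed, ran from -0.02 to 0.19), and the count of set genes higher in Ly49C/I+ stayed at 0. The count higher in Ly49G2+ was 5 and became 2 with the median of probe sets (Ero1l and P4ha1), 3 with the authors' deposited p-values (Hif1a, Bnip3 and Ero1l), 4 with the largest cluster, 7 with trend and robust moderation (Aldoa and Pgam1 added), and 3 to 5 when 1 array was left out, with 3 (Hif1a, Ero1l and P4ha1) without Ly49C/I+ replicate 3. Ero1l passed in all 13. Over all genes, calls higher in Ly49G2+ numbered 797 and became 219 with the median of probe sets, 358 with the deposited p-values and 410 to 765 with 1 array left out; calls higher in Ly49C/I+ numbered 1321 and became 460, 589 and 859 to 1112. Of the other hypoxia genes, 9 higher in Ly49G2+ became 2 with the median of probe sets, 1 with the deposited p-values and 5 to 7 with 1 array left out, and 2 higher in Ly49C/I+ became 1, 1 and 1 to 2. Of the further glycolysis genes, 2 higher in Ly49G2+ became 0, 0 and 0 to 2 (1 with the replicate block), and 1 higher in Ly49C/I+ became 0, 2 and 1 to 2. Pgd was lost (0 pentose phosphate genes) with the median of probe sets. The causes were not tested, and leaving out 1 array changes both how many arrays and which arrays are used. Replicate numbers were not treated as pairs in the main fit. Deviations of same-numbered arrays correlated at -0.0763, -0.186 and -0.0457, beside -0.143 to 0.186 for arrays of different number. With 3 arrays per group, these values cannot show whether same-numbered samples share a mouse, culture or day. With the replicate block 4 set genes passed and 495 genes were higher in Ly49G2+. Eno2 and Ldhb lie near the lower quartile of signal, and Egln3 is dim at 6.52 and 6.69. This limits what the differences of these genes show.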
